A study of Mus musculus with 6 samples.

Results

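The cell proliferation genes described here are 42 genes of DNA replication, cell cycle control, mitosis and cytokinesis, chosen by gene symbol. Of these, 37 were found among the 21461 genes measured in the mouse arcuate nucleus (ARC). The other 5 genes, *Ccnb1*, *Bub1*, *Aurkb*, *Ube2c* and *Melk*, were not among those rows and were not analysed here.

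A dividing cell switches these genes on in order. The MCM helicase is loaded onto origins before S phase and unwinds DNA with the clamp PCNA behind it, cyclins and their kinases drive each transition, and centromere, spindle and cytokinesis proteins then part the chromosomes and the cell. Most mRNAs of the mitotic group are present only in cycling cells, whereas several replication genes are also transcribed in resting cells. Neurons of the adult hypothalamus do not divide, and the known cycling cells of the adult brain are mainly oligodendrocyte precursors, microglia, endothelial cells, tanycytes and neural progenitors.

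The ARC was taken from male C57BL/6 mice aged 10 weeks, at 24 h after an i.p. injection. One group received dexamethasone (Dex, a synthetic agonist of the glucocorticoid receptor) at 10 mg/kg and also Zj7 at 50 mg/kg (Dex+Zj7), one received Dex alone at 10 mg/kg, and one received vehicle (Vehicle). Zj7 is known here by its code name, and the comparison of Dex+Zj7 with Dex asks what the added compound changed. Each of the 3 groups has 2 libraries. For the combined treatment the labels state just 10 mg/kg, and the 50 mg/kg of Zj7 comes from the study's methods. The labels call only the Vehicle mice fed. The study's methods let mice eat freely by default and name no fast for the mice of this experiment, and the labels give no feeding state for the treated mice. No source used here says that libraries of a group are separate mice. P-values set each difference against the spread between libraries, estimated over all 3 groups and with sharing across genes. That spread may therefore be technical.

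The 6 libraries held 50704789 to 61122938 counts. Genes with a count of 0 in any library were taken out before deposit, so a proliferation gene silent in 1 library could not be seen. The libraries of a group differed by more than sampling noise, so none was counted as a duplicate. All 8 arcuate neuron markers were measured, among them *Agrp* at 13.5 and 15.8 CPM (counts scaled to a common library total) in Dex+Zj7, 23.2 and 22.0 CPM in Dex, and 6.30 and 5.19 CPM in Vehicle. Of 8 pituitary markers only *Lhb* and *Tbx19* were among the rows, and their summed level was highest in Vehicle library 2, at 4.62 CPM, against 2.65 CPM in Vehicle library 1 and 1.67 to 2.49 CPM in the 4 treated libraries.

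The proliferation genes were weakly expressed. Their median level over the 6 libraries was 1.36 CPM, against 9.58 CPM over all genes, and 22 of the 37 averaged at least 1 CPM. Levels of different genes were compared per transcript length, as FPKM (fragments scaled by transcript length and mapped reads). In Vehicle the highest mean was that of *Pcna*, the sliding clamp of DNA polymerases, at 15.3 FPKM. It was followed by *Rrm1*, the large subunit of ribonucleotide reductase, at 5.77 FPKM, *Ccne1*, cyclin E1, at 3.99 FPKM, and the helicase subunits *Mcm7*, *Mcm4* and *Mcm6* at 3.80, 3.49 and 3.01 FPKM. The lowest Vehicle means belonged to *Hmmr*, a spindle and hyaluronan-binding protein, at 0.0570 FPKM, *Cdk1*, the kinase that starts mitosis, at 0.0612 FPKM, *Kif20a*, a kinesin of cytokinesis, at 0.0839 FPKM, and *Mki67*, the Ki-67 protein that coats mitotic chromosomes, at 0.0843 FPKM. Of the genes often read as marks of cycling cells, *Mki67* and *Cdk1* thus stood near the bottom of the order, with small counts per library, while *Pcna* stood at the top.

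**Figure D1:**
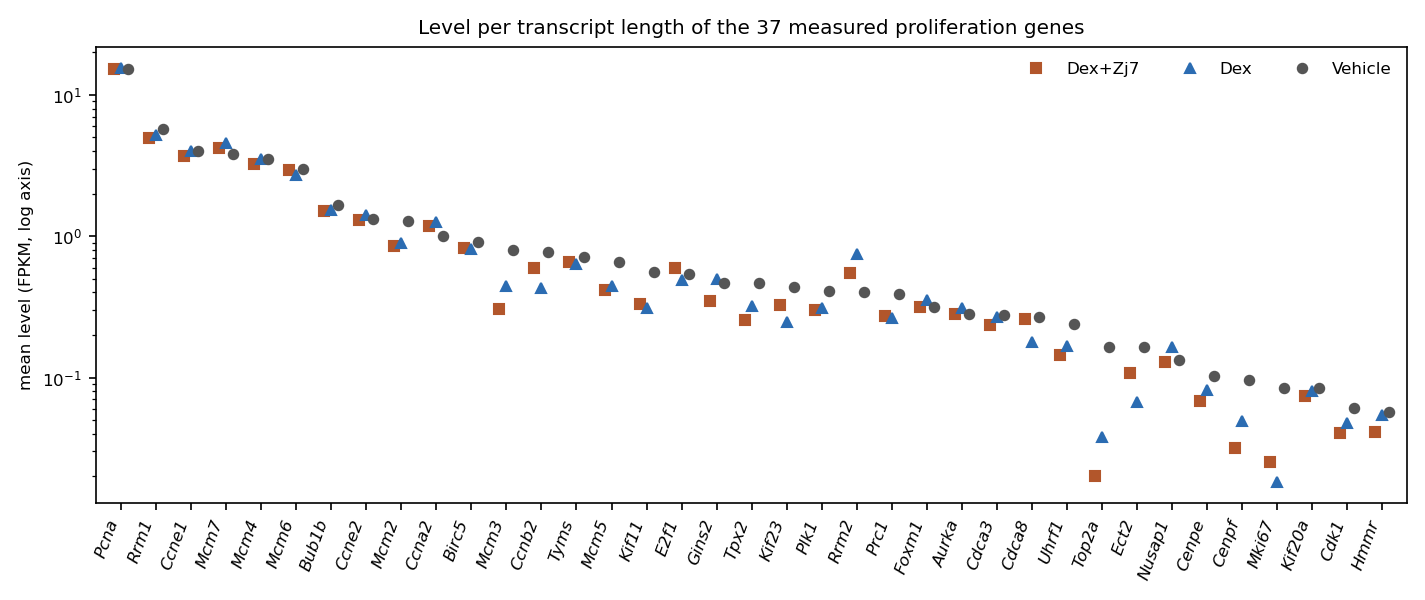
Mean level of each of the 37 measured genes in FPKM (log axis) in Dex+Zj7 (squares), Dex (triangles) and Vehicle (circles), ordered by the Vehicle mean of 2 libraries. *Pcna* stands highest at 15.3 FPKM and *Hmmr* lowest at 0.0570 FPKM, and the groups part most at *Top2a*, *Cenpf* and *Mki67*.

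Dex was compared with Vehicle to see which of these genes differed 24 h after the glucocorticoid. Of the 37 measured genes, 4 (10.8%) fell, where 6.45% of all genes fell at the same threshold (adjusted p under 0.05 in edgeR's quasi-likelihood test). They were *Top2a* and *Mki67* of the chromosomes, *Kif11* of the spindle and *Ect2* of cytokinesis. By the same test 0 rose, against 5.03% of all genes; DESeq2 also called 0 higher, and edgeR's exact test and limma-voom 1, *Rrm2*. At an unadjusted p under 0.05, 11 genes (29.7%) were lower, against 14.7% of all genes, and 2, *Mcm7* and *Rrm2*, were higher, against 13.2%. Both Dex libraries lay below both Vehicle libraries for 14 genes (37.8%; all genes 28.5%) and above them for 6 (16.2%; all genes 27.4%). The median log2 fold change was -0.21 over the 37 genes and 0.00 over all genes. It became -0.11 without Vehicle library 2, -0.14 without Dex library 2 and -0.38 without Vehicle library 1. In bulk tissue, fewer cells of a type and less RNA per cell cannot be told apart. The number of falls rested on each library, since 2 remained without either Dex+Zj7 library, 1 without Dex library 1, 1 without Dex library 2, 1 without Vehicle library 1 and 0 without Vehicle library 2. Other tools called between 3 (DESeq2) and 10 (edgeR's exact test) of the 37, and their shares of all genes are not given here.

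Dex+Zj7 was compared with Vehicle in the same fit, and this comparison shares its Vehicle libraries with the one above. Here 3 genes (8.11%) fell, *Top2a*, the replicative helicase subunit *Mcm3* and the centromere gene *Cenpf*, where 3.97% of all genes fell. Again 0 rose, against 3.4% of all genes, and edgeR's test gave 9 lower (24.3%; all genes 13%) and 0 higher (all genes 12.1%) at an unadjusted p under 0.05, while each of the other tools run also called 0 higher. Both Dex+Zj7 libraries lay below both Vehicle libraries for 16 genes (43.2%; all genes 28.7%) and above them for 3, *Mcm7*, *Rrm2* and *Ccna2* (8.11%; all genes 29.4%). The median log2 fold change was -0.36, against 0.00 over all genes, and it became -0.14 without Vehicle library 2 and -0.18 without Dex+Zj7 library 1. Without Dex+Zj7 library 2 or Vehicle library 2 the number of falls was 0, without Vehicle library 1 it was 1 (*Top2a*), and without Dex+Zj7 library 1 it was 1 (*Mki67*).

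Dex+Zj7 was set against Dex alone to ask what the added compound changed. By edgeR's quasi-likelihood test 0 of the 37 genes differed, where 0.00466% of all genes, a single gene, did. The count was also 0 at an unadjusted p under 0.05 (all genes 5.24%), and 0 by DESeq2, edgeR's exact test and limma-voom. Both Dex+Zj7 libraries lay below both Dex libraries for 11 genes (29.7%; all genes 14.9%) and above them for 7 (18.9%; all genes 16.4%). The log2 fold changes ran between -0.88 (*Top2a*) and 0.65 (*Ect2*), with a median of -0.10 against 0.00 over all genes (-0.04 without Dex+Zj7 library 1). The intervals were wide for the weakly expressed genes, so equal levels were not shown. For *Top2a* the 95% interval ran from -2.31 to 0.55, and for *Mki67* from -1.02 to 1.87, whereas for *Pcna* it ran from -0.19 to 0.15.

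**Figure D2:**
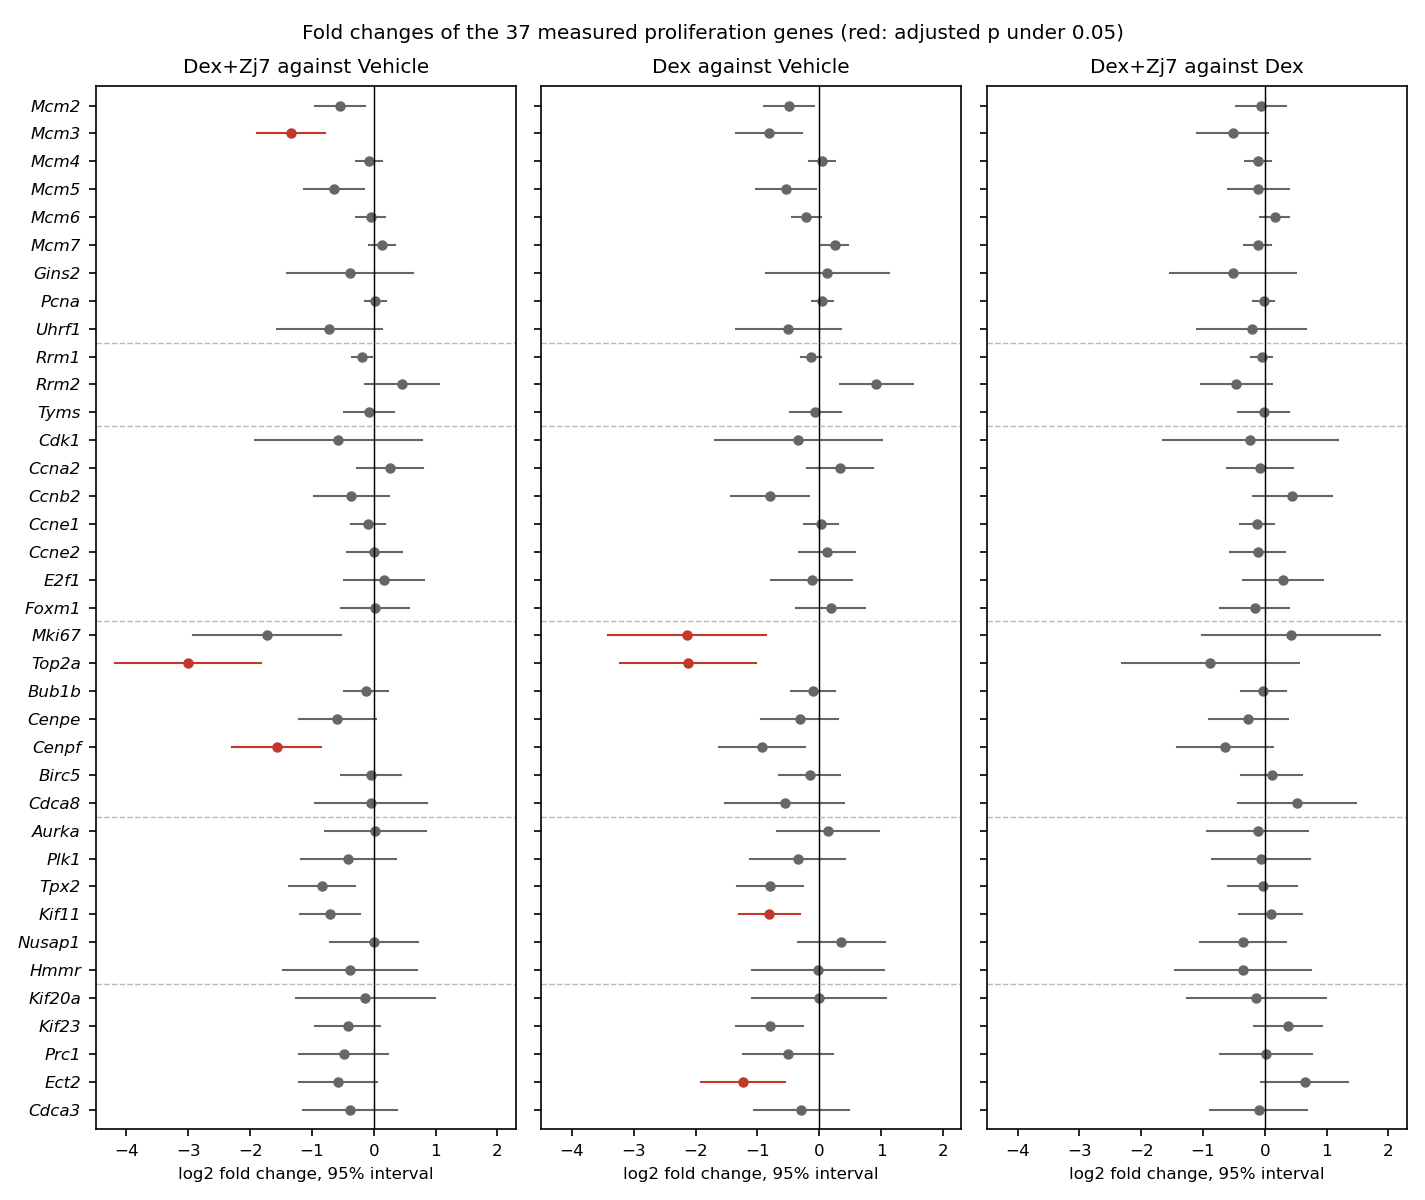
Log2 fold change (points) with its 95% interval (bars) of the 37 measured genes, in order of role from replication at the top to cytokinesis at the bottom, with dashed lines between roles. Red marks an adjusted p under 0.05: 3 genes in Dex+Zj7 against Vehicle, 4 in Dex against Vehicle and 0 in Dex+Zj7 against Dex, all of the red points lying left of 0.

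Of the 9 genes of origin licensing and the replication fork, 1 fell, *Mcm3* in Dex+Zj7 against Vehicle. MCM2 to MCM7 form a single ring-shaped helicase. *Mcm2*, *Mcm3* and *Mcm5* were lower at an unadjusted p under 0.05 in both treated groups against Vehicle, whereas *Mcm4* and *Mcm6* had log2 fold changes of -0.21 to 0.04. *Mcm3* (chr1:20802966-20820312, GRCm38.p6) had 0.87 and 1.16 CPM in Dex+Zj7, 1.32 and 1.60 CPM in Dex, and 2.75 and 2.40 CPM in Vehicle. The libraries of the 3 groups did not overlap, with Dex between the other two. *Mcm3* fell 2.53-fold in Dex+Zj7 against Vehicle, with a log2 fold change of -1.34 ± 0.24 (SE, n = 2 each) and an edgeR adjusted p of 0.0174. The call was lost without Dex+Zj7 library 1 (0.122) or 2 (0.0506) and without Vehicle library 1 (0.0903) or 2 (0.0614). In Dex against Vehicle the log2 fold change of *Mcm3* was -0.81 ± 0.23, with an edgeR adjusted p of 0.0588, and edgeR's exact test (0.00749), limma-voom (0.0406) and a filter on low counts (0.034) put it under the threshold. In Dex+Zj7 against Dex the log2 fold change was -0.52 ± 0.25, with an edgeR adjusted p of 0.972.

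*Mcm2*, the helicase subunit that also carries histones, had 3.11 and 3.23 CPM in Dex+Zj7, 3.20 and 3.42 CPM in Dex, and 4.10 and 5.17 CPM in Vehicle. All 4 treated libraries lay below the Vehicle libraries, but the edgeR adjusted p was 0.0980 for Dex+Zj7 against Vehicle and 0.116 for Dex against Vehicle. *Mcm5*, another subunit, had log2 fold changes of -0.64 in Dex+Zj7 and -0.54 in Dex against Vehicle, with edgeR adjusted p-values of 0.102 and 0.139. EdgeR's exact test called both *Mcm2* (0.0313) and *Mcm5* (0.0308) in Dex+Zj7 against Vehicle. *Mcm7*, also a subunit, had positive log2 fold changes of 0.13 and 0.25 in the same comparisons, with edgeR adjusted p-values of 0.440 and 0.127. The exons of *Mcm7* overlap those of *Ap4m1* and *Cops6* on the other strand and hold *Mir25* and *Mir93*, and the sources used here do not say whether counting used strand.

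*Pcna* stood at 20.8 and 21.5 CPM in Dex+Zj7, 21.8 and 21.2 CPM in Dex, and 20.9 and 20.6 CPM in Vehicle. This most abundant fork gene had a narrow 95% interval, from -0.12 to 0.21 on the log2 scale in Dex against Vehicle. *Gins2*, a subunit of the helicase-activating GINS complex, and *Uhrf1*, which guides maintenance DNA methylation, were read at 0.31 to 1.21 CPM per library, and the libraries of their groups overlapped in both comparisons with Vehicle. Over the 9 genes, the summed level was 62.4 and 64.1 CPM in Dex+Zj7, 65.4 and 65.7 CPM in Dex, and 66.6 and 68.0 CPM in Vehicle.

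Of the 3 genes of nucleotide supply, *Rrm2*, the small subunit of ribonucleotide reductase that is made in S phase, was the one with the largest positive difference among the 37 in Dex against Vehicle. It had 1.51 and 1.12 CPM in Dex+Zj7, 1.70 and 1.91 CPM in Dex, and 1.06 and 0.85 CPM in Vehicle. The groups did not overlap, Dex being the highest. The log2 fold change of *Rrm2* in Dex against Vehicle was 0.92 ± 0.26 (SE, n = 2 each), with an edgeR adjusted p of 0.0545, and edgeR's exact test (0.00705), limma-voom (0.0445) and a filter on low counts (0.0311) put it under the threshold. *Rrm1*, its partner, differed by -0.19 in Dex+Zj7 and -0.14 in Dex against Vehicle on the log2 scale, and *Tyms*, thymidylate synthase, by -0.08 and -0.06, and none of these passed the test.

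Among the 7 measured cyclins, kinases and transcription factors, 0 passed edgeR's quasi-likelihood test in any of the 3 comparisons. At an unadjusted p under 0.05 only 1, *Ccnb2*, cyclin B2, was lower, in Dex against Vehicle (log2 fold change -0.80 ± 0.28, edgeR adjusted p = 0.0980), and edgeR's exact test called it while DESeq2 and limma-voom called 0. *Cdk1* had 0.14 and 0.26 CPM in Dex+Zj7, 0.34 and 0.15 CPM in Dex, and 0.45 and 0.15 CPM in Vehicle, from 8 to 26 counts per library. The groups overlapped throughout, and its 95% interval in Dex against Vehicle ran from -1.69 to 1.01. The cyclins *Ccna2*, *Ccne1* and *Ccne2*, which act with CDK2, and the transcription factors *E2f1*, of S phase, and *Foxm1*, of mitosis, had log2 fold changes of -0.13 to 0.33 in Dex against Vehicle and of -0.09 to 0.26 in Dex+Zj7 against Vehicle. *Ccna2* (with *Exosc9*), *Ccne2* (with *Ints8*) and *Foxm1* (with *Tex52*) share exonic positions with another gene. Among the genes of other roles, so do *Gins2*, *Cdca8*, *Plk1*, *Nusap1*, *Kif20a* and *Prc1*, besides *Mcm7* and *Top2a*.

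The 7 measured genes of chromosomes, centromere and checkpoint all had log2 fold changes below 0 in both comparisons with Vehicle, which share the Vehicle libraries. Of all 21461 genes, 10627 were below 0 in Dex and 10783 in Dex+Zj7. The libraries of *Bub1b*, *Birc5* and *Cdca8* overlapped those of Vehicle in both comparisons. *Top2a*, DNA topoisomerase II alpha, which untangles sister chromosomes, lies at chr11:98992947-99024199. It had 0.07 and 0.16 CPM in Dex+Zj7, 0.32 and 0.13 CPM in Dex, and 0.73 and 1.20 CPM in Vehicle, from 4 and 10, 16 and 7, and 42 and 65 counts. Every treated library lay below both Vehicle libraries, while Dex+Zj7 and Dex overlapped. *Top2a* fell 8.02-fold in Dex+Zj7 against Vehicle (log2 fold change -3.00 ± 0.52, SE, n = 2 each, edgeR adjusted p = 0.0152) and 4.35-fold in Dex against Vehicle (-2.12 ± 0.48, edgeR adjusted p = 0.0269), the only 1 of the 37 genes to pass the quasi-likelihood test in both. EdgeR's exact test called *Mcm3*, *Mki67*, *Cenpf*, *Tpx2* and *Kif11* in both as well, limma-voom *Mcm3* and *Tpx2*. The call in Dex against Vehicle was lost without Dex library 2 (0.0909) or Vehicle library 2 (0.142), and that in Dex+Zj7 against Vehicle without Dex+Zj7 library 1 (0.108) or 2 (0.0506) or Vehicle library 2 (0.0671). A small nucleolar RNA gene, *Gm23451*, shares exonic positions with *Top2a* and was not among the rows.

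*Mki67* (chr7:135689784-135716450) had 0.47 and 0.10 CPM in Dex+Zj7, 0.24 and 0.18 CPM in Dex, and 0.83 and 1.03 CPM in Vehicle, from 27 and 6, 12 and 10, and 48 and 56 counts. All treated libraries lay below Vehicle, but the Dex+Zj7 libraries stood apart from each other, on both sides of Dex. *Mki67* fell 4.42-fold in Dex against Vehicle (log2 fold change -2.15 ± 0.56, SE, n = 2 each, edgeR adjusted p = 0.0424). The call was lost without Dex library 1 (0.109) or 2 (0.125) and without Vehicle library 1 (0.0912) or 2 (0.165). In Dex+Zj7 against Vehicle the log2 fold change was -1.72 ± 0.53 with an edgeR adjusted p of 0.0849, and edgeR's exact test called it (0.0302). It rested on which Dex+Zj7 library was used, at -3.21 (adjusted p = 0.0314) without library 1, the one with 27 counts, and at -0.99 (adjusted p = 0.225) without library 2.

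*Cenpf*, a large kinetochore protein that builds up in G2 and mitosis, lies at chr1:189640606-189688107. It had 0.37 and 0.41 CPM in Dex+Zj7, 0.73 and 0.49 CPM in Dex, and 1.33 and 0.98 CPM in Vehicle. As with *Mcm3*, the groups did not overlap and Dex lay between the other two. In Dex+Zj7 against Dex the log2 fold change of *Cenpf* was -0.65 ± 0.34, with an edgeR adjusted p of 0.987. *Cenpf* fell 2.97-fold in Dex+Zj7 against Vehicle (log2 fold change -1.57 ± 0.32, SE, n = 2 each, edgeR adjusted p = 0.0256), and the call was lost without either Dex+Zj7 library (0.144 and 0.101) or either Vehicle library (0.128 and 0.0574). Its difference in Dex against Vehicle was -0.92 ± 0.31 with an edgeR adjusted p of 0.0883, and edgeR's exact test gave 0.0374. *Cenpe*, the kinesin that moves chromosomes at kinetochores, the checkpoint kinase *Bub1b*, and *Birc5* and *Cdca8* of the chromosomal passenger complex had log2 fold changes of -0.56 to -0.10 in Dex and of -0.59 to -0.04 in Dex+Zj7 against Vehicle, and none passed.

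Among the 6 spindle and centrosome genes, *Kif11*, the bipolar kinesin that pushes spindle poles apart, fell in Dex. *Kif11* (chr19:37376382-37421863) had 1.62 and 1.94 CPM in Dex+Zj7, 1.44 and 1.88 CPM in Dex, and 2.96 and 2.86 CPM in Vehicle. The treated libraries overlapped each other and lay below Vehicle. The fall in Dex against Vehicle was 1.75-fold (log2 fold change -0.81 ± 0.22, SE, n = 2 each, edgeR adjusted p = 0.0477), and it passed in 1 of the 6 fits with a library left out, that without Dex library 2 (0.0486). Without Dex+Zj7 library 1 or 2 its adjusted p was 0.0641 or 0.0684, without Dex library 1 it was 0.172, and without Vehicle library 1 or 2 it was 0.169 or 0.177. The difference in Dex+Zj7 against Vehicle was -0.71 ± 0.21 with an edgeR adjusted p of 0.0826, and edgeR's exact test gave 0.0144.

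*Tpx2*, which activates Aurora A on the spindle, showed differences of similar size in both comparisons, -0.83 ± 0.23 in Dex+Zj7 and -0.80 ± 0.24 in Dex against Vehicle, with edgeR adjusted p-values of 0.0682 and 0.0647. Other settings called *Tpx2* in both, with adjusted p-values of 0.00845 and 0.0107 by edgeR's exact test, 0.0465 and 0.0483 by limma-voom and 0.0406 and 0.0395 with a filter on low counts. The mitotic kinases *Aurka* and *Plk1* had log2 fold changes of 0.03 and -0.41 in Dex+Zj7 and of 0.14 and -0.35 in Dex against Vehicle. The microtubule-binding *Nusap1* and *Hmmr* had 0.01 and -0.38 in Dex+Zj7 and 0.36 and -0.03 in Dex against Vehicle. None of these 5 genes passed edgeR's quasi-likelihood test. Summed over the 6 genes, the level was 4.65 and 5.33 CPM in Dex+Zj7, 4.97 and 5.35 CPM in Dex, and 7.20 and 7.53 CPM in Vehicle, so that all 4 treated libraries stood below both Vehicle libraries. This sum was mostly *Kif11* and *Tpx2*, with Vehicle means of 2.91 and 2.16 CPM, against 0.24 to 0.99 CPM for the others. *Aurka*, *Plk1*, *Nusap1* and *Hmmr* did not have both libraries of either treated group below both Vehicle libraries.

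Of the 5 measured genes of cytokinesis and mitotic exit, *Ect2*, the exchange factor that turns on RhoA at the cleavage furrow, fell in Dex. *Ect2* (chr3:27097222-27154253) had 0.56 and 0.54 CPM in Dex+Zj7, 0.30 and 0.40 CPM in Dex, and 0.78 and 0.87 CPM in Vehicle. The 3 groups did not overlap, and here Dex was the lowest. The fall in Dex against Vehicle was 2.34-fold (log2 fold change -1.23 ± 0.30, SE, n = 2 each, edgeR adjusted p = 0.0333). The call was lost without each of the libraries in turn, with adjusted p-values of 0.0524 and 0.0549 without Dex+Zj7 library 1 and 2, 0.130 and 0.0517 without Dex library 1 and 2, and 0.0992 and 0.167 without Vehicle library 1 and 2. DESeq2 gave 0.0966. In Dex+Zj7 against Dex, *Ect2* had the smallest p of the 37 genes (log2 fold change 0.65 ± 0.31, unadjusted p = 0.0669 and adjusted p = 0.969 in edgeR's test).

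*Kif23*, the motor of the centralspindlin complex that recruits ECT2, had a log2 fold change of -0.80 ± 0.24 in Dex against Vehicle (edgeR adjusted p = 0.0639, but 0.014 by edgeR's exact test and 0.0435 with a filter on low counts) and of -0.42 ± 0.23 in Dex+Zj7 against Vehicle (edgeR adjusted p = 0.293). The spindle midzone protein *Prc1*, *Cdca3*, which acts in mitotic entry, and *Kif20a* had differences of -0.51 to 0.00 in Dex and of -0.48 to -0.13 in Dex+Zj7 against Vehicle, and none passed. The summed level of the 5 genes was 3.43 and 3.57 CPM in Dex+Zj7, 3.55 and 2.60 CPM in Dex, and 4.31 and 5.21 CPM in Vehicle.

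**Figure D3:**
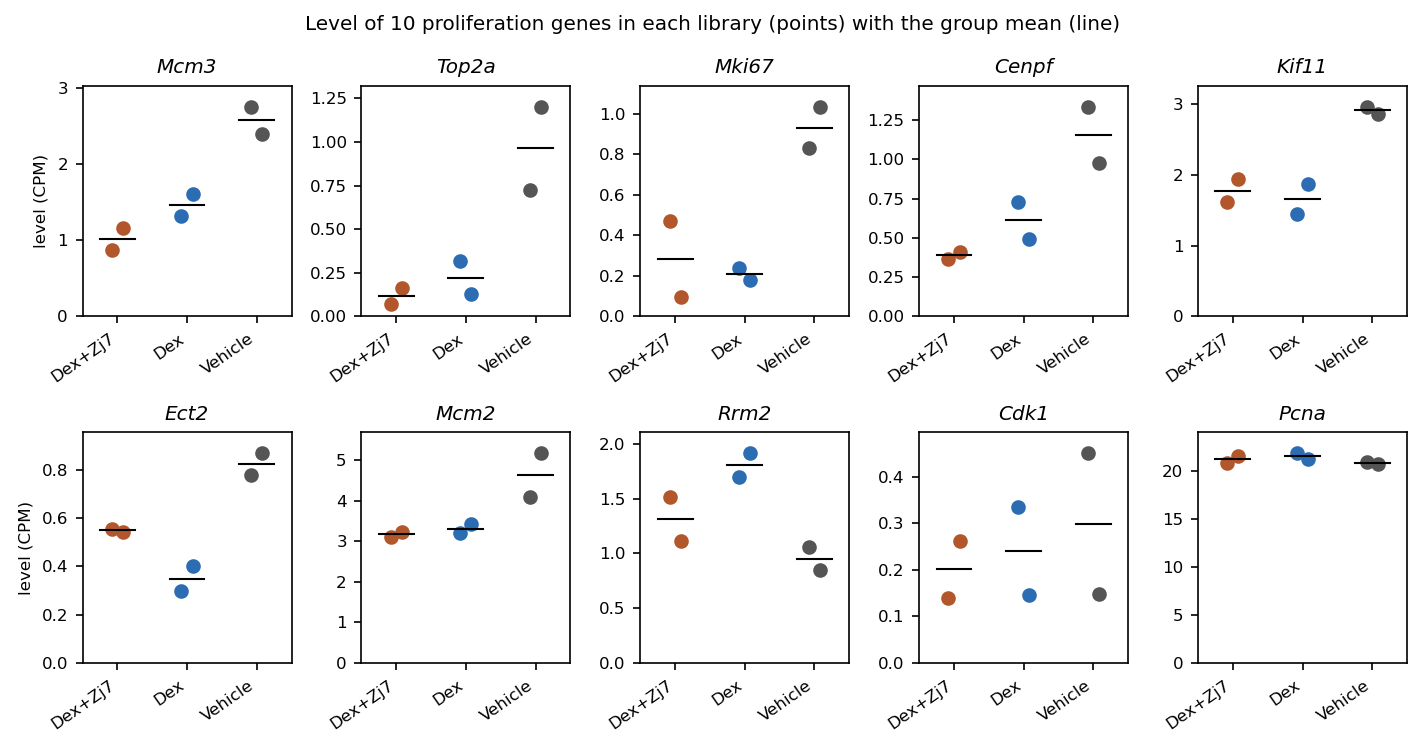
Level in CPM (linear axes from 0) of 10 genes in each library (points) with the mean of the 2 libraries of a group (line), for Dex+Zj7, Dex and Vehicle from left to right. In *Mcm3*, *Top2a*, *Mki67*, *Cenpf*, *Kif11* and *Ect2* all 4 treated points lie below both Vehicle points, while *Cdk1* overlaps between groups and *Pcna* stays between 20.6 and 21.8 CPM.

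The start sites of the genes that fell were read for the elements known from cell cycle promoters. In such promoters the MuvB complex binds the cell cycle genes homology region (CHR, searched here as TTTGAA and as the variant spelled TTTAAA), NF-Y binds the CCAAT box, searched by those letters, and E2F binds sites searched here as TTTCCCGC, TTTCGCGC, TTTGCCGC or TTTGGCGC, all on both strands. The 300 bases from 250 before to 50 after the start came from RefSeq on GRCm38.p6 and were matched by gene identifier for 30 of the 37 genes. A CHR match was found in 21 of the 30 (70%), against 27.8% of all 27025 promoters of that length, a CCAAT match in 25 (83.3%), against 37.9%, and an E2F match in 5 (16.7%), against 2.32%. Over the 14918 promoters of measured genes the shares were 20.8% for CHR, 38% for CCAAT and 3.64% for E2F. All 6 genes that fell in either comparison with Vehicle had at least 1 CCAAT match, and 5 of them had a CHR match, the exception being *Mcm3*, the only one of the 6 with an E2F match. The 30 bases after the start were found in a GENCODE transcript of the gene for 19 of the 30 promoters, and not for 11, *Mki67* and *Kif11* among them. A match is a description of the letters, and no binding was measured.

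The 4 promoters printed are those of the fallen genes with the smallest p, and capitals mark the matches, read on the gene's own strand (the minus strand for all 4), where ATTGG stands for a CCAAT box, TTCAAA for a CHR and GCGGGAAA for an E2F site on the opposite strand. They show 3 mitotic genes with CHR and CCAAT matches beside a replication gene with CCAAT and E2F matches. They lie at chr11:99024140-99024439 (*Top2a*), chr1:20820263-20820562 (*Mcm3*), chr1:189688037-189688336 (*Cenpf*) and chr3:27153829-27154128 (*Ect2*). The *Ect2* window lies wholly within the gene's span, chr3:27097222-27154253, so its start is not the outermost start of that gene.
Top2a: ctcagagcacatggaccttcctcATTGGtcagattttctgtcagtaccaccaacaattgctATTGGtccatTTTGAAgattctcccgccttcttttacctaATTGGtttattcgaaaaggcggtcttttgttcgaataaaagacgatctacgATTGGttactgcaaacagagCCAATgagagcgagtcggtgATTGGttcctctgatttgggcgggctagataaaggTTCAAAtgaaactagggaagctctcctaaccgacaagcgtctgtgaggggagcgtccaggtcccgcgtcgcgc
Mcm3: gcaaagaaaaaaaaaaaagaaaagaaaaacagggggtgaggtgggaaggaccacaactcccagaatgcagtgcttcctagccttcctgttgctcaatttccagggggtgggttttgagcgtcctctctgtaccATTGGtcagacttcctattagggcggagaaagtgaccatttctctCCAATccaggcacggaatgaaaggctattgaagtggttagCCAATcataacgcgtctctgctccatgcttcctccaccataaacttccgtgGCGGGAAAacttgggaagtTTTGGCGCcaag
Cenpf: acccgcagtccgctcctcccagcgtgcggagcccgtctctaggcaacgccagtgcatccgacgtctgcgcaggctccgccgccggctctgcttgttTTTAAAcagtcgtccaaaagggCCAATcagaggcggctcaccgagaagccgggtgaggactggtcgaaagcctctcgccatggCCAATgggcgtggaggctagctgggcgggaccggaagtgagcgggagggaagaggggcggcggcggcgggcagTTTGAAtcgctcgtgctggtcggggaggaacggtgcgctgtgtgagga
Ect2: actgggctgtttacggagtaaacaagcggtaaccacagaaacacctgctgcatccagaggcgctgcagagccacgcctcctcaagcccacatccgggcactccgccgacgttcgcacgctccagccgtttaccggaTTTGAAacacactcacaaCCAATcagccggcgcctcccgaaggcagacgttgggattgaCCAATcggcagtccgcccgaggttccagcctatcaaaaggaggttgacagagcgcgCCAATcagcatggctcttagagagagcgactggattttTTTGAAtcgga
In *Top2a* 6 CCAAT matches are spread upstream of the start, and 1 of its 2 CHR matches begins at -23, counted from the start. In *Mcm3* the E2F matches begin at 19 and 38. In *Cenpf* and *Ect2* 1 CHR match each lies upstream, at -154 and -114, and 1 close to or after the start, at 2 and 39.

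Genes of the same processes outside the 42 were read from other lists. Of 27 measured other replication genes, 3 (11.1%; all genes 6.45%) fell and 0 rose in Dex against Vehicle, and 0 differed in Dex+Zj7 against Vehicle (edgeR's quasi-likelihood test, with 5 lower and 2 higher at an unadjusted p under 0.05). DESeq2, edgeR's exact test and limma-voom called 3 lower and 1 higher (*Tipin*) in Dex, and 1, 2 and 0 genes in Dex+Zj7. *Pold1*, the catalytic subunit of DNA polymerase delta, had 5.48 and 6.18 CPM in Dex+Zj7, 4.46 and 4.62 CPM in Dex, and 7.18 and 7.37 CPM in Vehicle. It fell in Dex against Vehicle with a log2 fold change of -0.68 ± 0.14 (edgeR adjusted p = 0.0180), as did *Timeless*, of the fork protection complex, with -0.91 ± 0.19 (0.0203), and *Tk1*, thymidine kinase, with -1.75 ± 0.47 (0.0484). Of 31 measured other mitosis genes, 1 (3.23%; all genes 6.45%) fell and 0 rose in Dex against Vehicle, *Espl1*, the protease separase (-1.29 ± 0.35, edgeR adjusted p = 0.0496). In Dex+Zj7 against Vehicle 1 fell (3.23%; all genes 3.97%) and 0 rose by edgeR's quasi-likelihood test, the centromeric histone gene *Cenpa* (-1.52, edgeR adjusted p = 0.0455), with 4 higher and 4 lower at an unadjusted p under 0.05. DESeq2 and limma-voom did not call *Cenpa*, DESeq2 and edgeR's exact test called *Tacc3* higher and *Nuf2*, a kinetochore protein, lower, and limma-voom called 0. *Cenpa* and *Nuf2* were named after their values were seen. *Tacc3*, a spindle protein, was higher in Dex against Vehicle by 0.56 ± 0.16 with an edgeR adjusted p of 0.0584, and DESeq2, edgeR's exact test and limma-voom called it; *Ncapg*, a condensin subunit, had -1.48 ± 0.43 (0.0595). The medians of both lists were near 0, at 0.14 and -0.08 in Dex and at 0.05 and -0.04 in Dex+Zj7 against Vehicle, and 0 genes of either list passed in Dex+Zj7 against Dex by edgeR, DESeq2 or limma-voom, with 2 higher and 1 lower over both lists at an unadjusted p under 0.05 in edgeR's test.

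Of 29 genes of cell cycle control and exit, 2 rose (6.9%; all genes 5.03%) and 4 fell (13.8%; all genes 6.45%) in Dex against Vehicle, and 1 rose (3.45%; all genes 3.4%) and 3 fell (10.3%; all genes 3.97%) in Dex+Zj7 against Vehicle. *Cdkn1a*, the CDK inhibitor p21, is also among 12 listed genes known to be induced by glucocorticoid, of which 9 rose in Dex+Zj7 and 10 in Dex against Vehicle. It had 82.9 and 50.1 CPM in Dex+Zj7, 95.7 and 94.1 CPM in Dex, and 11.1 and 10.3 CPM in Vehicle. The treated groups lay far above Vehicle (log2 fold changes 2.64 ± 0.21 in Dex+Zj7 and 3.15 ± 0.21 in Dex, edgeR adjusted p = 0.000755 and 0.000291). The D-type cyclins *Ccnd1* and *Ccnd2*, which carry growth signals to CDK4 and CDK6, fell in both comparisons, by 0.42 and 0.49 on the log2 scale in Dex+Zj7 and by 0.62 and 0.42 in Dex. The remaining calls, named after their values were seen, were *E2f8*, a repressor made in S phase, lower in Dex+Zj7 (-1.71) and in Dex (-2.20), and *Cdk6* (-0.88) and *E2f3* (0.31), which passed in Dex against Vehicle. DESeq2 did not call *E2f8* in either. In Dex+Zj7 against Dex 0 of the 29 passed by edgeR, DESeq2 or limma-voom, with 2 lower and 0 higher at an unadjusted p under 0.05 in edgeR's test.

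Markers of other cell types differed in level between the same groups, in some lists and not in others (edgeR's quasi-likelihood test). Of all genes, 3.97% fell in Dex+Zj7 and 6.45% in Dex against Vehicle by this test. Of 9 microglia markers, 7 fell in Dex+Zj7 and 6 in Dex against Vehicle, with summed levels of 150 and 141 CPM in Dex+Zj7, 155 and 155 CPM in Dex, and 255 and 252 CPM in Vehicle. Of 9 endothelial markers, 2 and 8 fell, with sums of 155 and 193 CPM in Dex+Zj7, 107 and 90.7 CPM in Dex, and 205 and 210 CPM in Vehicle. The endothelial sums were thus higher in Dex+Zj7 than in Dex. In that comparison 0 of the 9 markers passed edgeR's quasi-likelihood test. At an unadjusted p under 0.05 in that test 9 were higher, as were 670 of all 21461 genes. DESeq2 and edgeR's exact test called 7 markers higher and limma-voom called 0, and the shares of all genes these tools called are not given here. The chromosome genes summed to 9.71 and 10.6 CPM in Dex+Zj7, 10.1 and 10.5 CPM in Dex, and 13.4 and 13.3 CPM in Vehicle. Of 8 oligodendrocyte markers 6 fell in each comparison, and of 8 tanycyte and ependymal markers 4 fell in Dex+Zj7 and 3 in Dex. Their sums were 4243 and 4490 CPM in Dex+Zj7, 4150 and 4147 CPM in Dex, and 5107 and 5564 CPM in Vehicle for oligodendrocytes, and 126 and 142, 157 and 139, and 190 and 171 CPM in the same groups for tanycytes and ependyma. All of these lists were lower in every treated library than in both Vehicle libraries, and their part in the result was not tested.

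Oligodendrocyte precursor markers were split. Of 10, 2 rose and 1 fell in Dex+Zj7 (all genes 3.4% and 3.97%) and 2 rose and 4 fell in Dex (all genes 5.03% and 6.45%) against Vehicle. *Pdgfra*, the receptor that defines these cells, rose in both, with 115 and 109 CPM in Dex+Zj7, 108 and 114 CPM in Dex, and 87.5 and 81.1 CPM in Vehicle, while *Gpr17*, of cells about to differentiate, fell in Dex, with 73.7 and 73.8 CPM in Dex+Zj7, 54.0 and 67.2 CPM in Dex, and 86.1 and 104 CPM in Vehicle. Of 8 astrocyte markers 2 fell in each comparison and 0 rose by edgeR's quasi-likelihood test (1 higher at an unadjusted p under 0.05 in each), while DESeq2 and edgeR's exact test called 1, *Aldh1l1*, higher in Dex against Vehicle. Astrocyte sums were 2745 and 2832 CPM in Dex+Zj7, 2912 and 2718 CPM in Dex, and 2957 and 2966 CPM in Vehicle. Of 8 neuron markers and 5 measured neuroblast markers 0 passed edgeR's test in either comparison, with 1 neuron marker higher at an unadjusted p under 0.05 in each. Of the other tools DESeq2 called 1 of them, *Snap25*, in Dex against Vehicle, and edgeR's exact test and limma-voom called 0. Neuroblast sums were 78.2 to 81.9 CPM in Dex+Zj7, 79.7 to 93.3 CPM in Dex and 74.9 to 81.2 CPM in Vehicle, and *Eomes* was not among the rows. Of 7 measured blood and lymphocyte markers, 4 fell in Dex+Zj7 and 1 in Dex, with sums of 25.3 and 27.1 CPM in Dex+Zj7, 55.3 and 34.9 CPM in Dex, and 54.1 and 53.6 CPM in Vehicle. The part of these cells in the falls of *Top2a* and *Mki67*, and that of the pituitary markers highest in Vehicle library 2, was not tested.

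**Figure D4:**
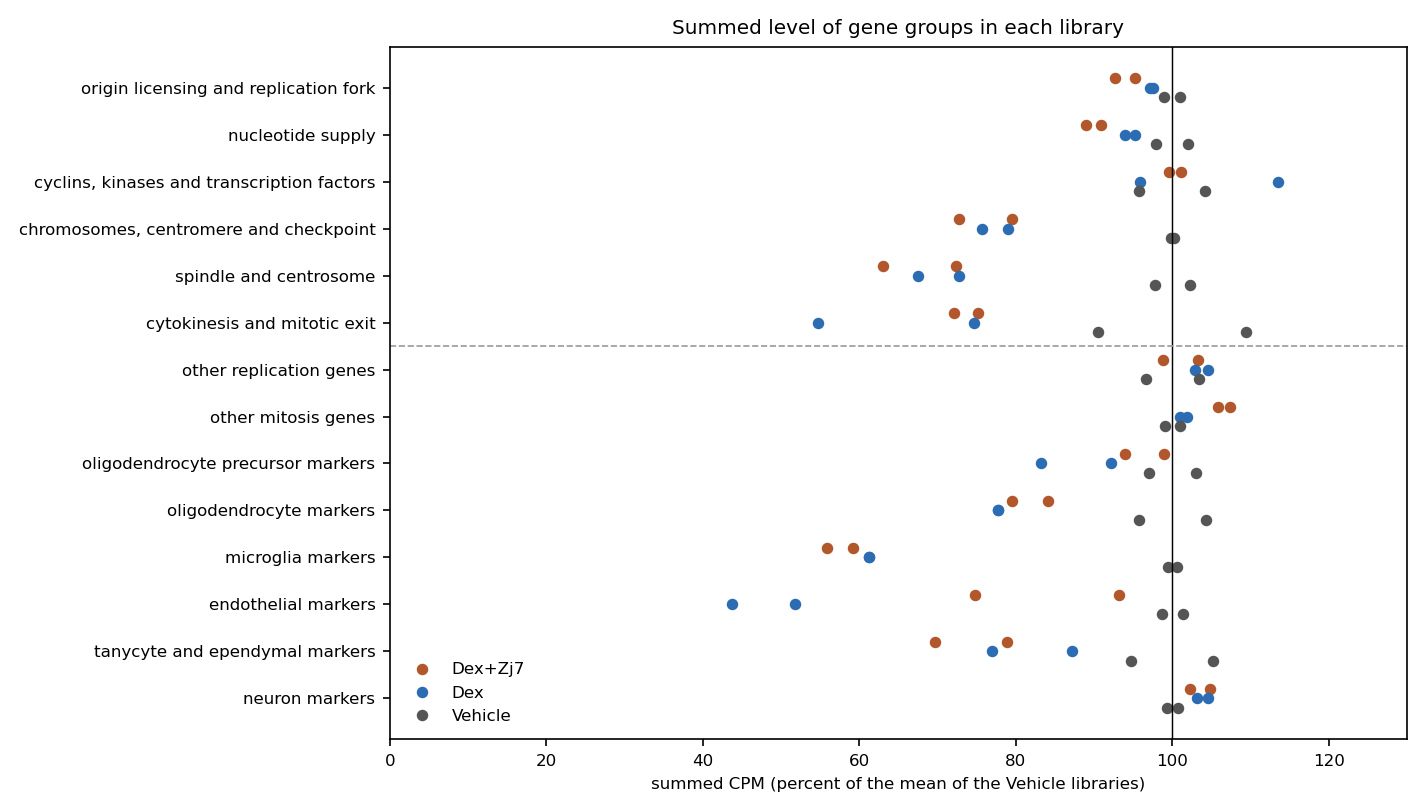
Summed level of each gene group in each library (points), in percent of the mean of the 2 Vehicle libraries (line at 100), with the roles of the proliferation genes above the dashed line and other lists below it. Chromosome, spindle and cytokinesis genes lie at 54.7% to 79.5% in the treated libraries and replication fork genes at 92.6% to 97.6%. Other mitosis genes lie at 101% to 107% and other replication genes at 98.9% to 105%. Sums follow the most abundant genes. The median log2 fold changes of fork, chromosome, spindle and cytokinesis genes against Vehicle were -0.39, -0.59, -0.40 and -0.42 in Dex+Zj7. In Dex they were -0.21, -0.56, -0.19 and -0.51. Microglia markers lie at 55.9% to 61.2% and neuron markers at 102% to 105%.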

How the data were processed

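ARC RNA of 6 libraries in 3 groups was analysed, with groups and replicate numbers taken from the sample labels. The authors removed low-quality and artifact reads, mapped the others to mm10 with Bowtie2 and HISAT2, assembled transcripts with StringTie and left out genes at 0 in any library. The authors deposited raw read counts per gene, which were tested as they stand. The deposited FPKM values served only to compare levels between genes. Deposited TPM, log2 normalized columns and columns of the authors' own comparisons (fold changes and p-values) were not used.

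Levels are CPM of TMM-scaled libraries. The quasi-likelihood test (edgeR 4.0.16, R 4.3.3) was run in 1 fit of the 6 libraries with no covariate and no further filter. Calls were made at a Benjamini-Hochberg adjusted p under 0.05 over 21461 genes. Standard errors were taken from the size of each log2 fold change over the root of its F. The alternatives were RLE factors, total counts, DESeq2 1.42.0, edgeR's exact test, limma-voom (limma 3.58.1), edgeR's filterByExpr, only the 2 groups compared, the replicate block and each library left out in turn. The test was also tested on simulated data. At 50704789 to 61122938 counts a library, counting error limits the genes with few counts.

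The genes and lists were chosen with earlier results of these data known. Every measured gene of the 42 is named, with library values for those called and for *Mki67*, *Top2a*, *Cdk1*, *Pcna* and *Mcm2*. *Rrm2*, *Agrp*, *Pdgfra* and *Gpr17* were given library values, and *Tipin*, *Snap25* and *Aldh1l1* named, after their values were seen. Of each other cell cycle list the 3 with the smallest p in Dex against Vehicle could be named. Positions and promoters come from RefSeq on GRCm38.p6, the assembly behind mm10, and exon overlaps from GENCODE.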

Additional observations from a re-analysis of the deposited data

How the results depend on the processing

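The 4 falls in Dex against Vehicle became 10 calls with edgeR's exact test, 7 with limma-voom, 8 with filterByExpr (each including *Rrm2* as the only rise) and 2 with only the 2 groups compared. The 3 falls in Dex+Zj7 against Vehicle became 8 with the exact test. Leaving out 1 library in turn gave 0 to 2 calls in Dex against Vehicle and 0 to 3 in Dex+Zj7 against Vehicle, and a group left with 1 library was assumed to vary like the others. In Dex+Zj7 against Dex the count was 0 under every alternative run. The cause of these changes was not tested. RLE factors and total counts kept all 4 and all 3 calls, DESeq2 gave 3 and 3, and no called gene changed direction under any alternative.

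With the replicate block the calls were 5 in Dex against Vehicle (*Rrm2* added, adjusted p = 0.0478), 3 in Dex+Zj7 against Vehicle and 0 in Dex+Zj7 against Dex. The labels link libraries of different groups only by a number. Over 15531 genes of at least 1 CPM, deviations of same-numbered libraries correlated at r = -0.01 between Dex+Zj7 and Dex and 0.02 between Dex+Zj7 and Vehicle. Between Dex and Vehicle r was 0.32, and whether same-numbered libraries share a batch was not tested.

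Depth limits genes such as *Top2a*, *Mki67*, *Cdk1* and *Cenpf*, with counts as low as 4, 6, 8 and 21 in a library.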
